A study of Mus musculus with 12 samples.

Results

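The genes described here encode 5 claudins (Cldn1, Cldn3, Cldn4, Cldn7 and Cldn8), the adhesion molecule Epcam, occludin (Ocln) and the scaffold proteins Tjp1 and Tjp3 of the tight junction, in the mouse mammary gland. They were taken by gene symbol in the platform annotation. Each of the 9 genes had 1 probe with a value on every array, among 17589 probes of which 14136 name a single gene and together cover 12913 genes. RNA was taken from microdissected terminal end buds, the club-shaped tips that drive ductal growth at puberty, on 6 arrays, and from mature ducts on another 6 arrays. Each array set this RNA, in Cy5, against epithelium-free stroma from the distal gland, in Cy3. Glands came from animals 5 weeks of age that carried a B-actin-GFP reporter, which was used to see the tissue for dissection. The labels give no strain, sex or treatment. They also do not state how many animals or RNA pools stand behind the arrays, so a p-value reflects array-to-array spread alone, and that spread can be technical. The labels show no dye swap, so dye effects remain in ratios over stroma.

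Tight junctions close the gap between neighbouring epithelial cells near their apical side. Claudins span the membrane and form the sealing strands or, for some members, selective pores, while occludin joins the strands and the Tjp scaffolds tie them to actin. Epcam is an epithelial surface protein that binds Cldn7 and steadies claudins in the intestinal epithelium of mice. In the mammary gland, tight junctions between luminal cells separate the lumen from the tissue and become tight when milk is made.

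Values are logarithms of the epithelial signal over the stromal signal, taken as log2. The submitters' text does not name the base; with natural logarithms the folds would be larger, while signs, ranks and p-values would stay. A ratio of 1 stands for 2-fold more signal than in stroma. Ratios say how far a gene differed from stroma and not how abundant it was. The mean ratio of the luminal keratins Krt8, Krt18 and Krt19 lay between 5.29 and 5.94 on terminal end bud arrays, and between 4.24 and 4.74 on duct arrays. Of 6 luminal markers 5 were higher than stroma in terminal end buds and 6 in ducts, and of 5 measured basal markers 4 and 5. By the same test, described below, 23.2% of all probes were higher in terminal end buds and 16% in ducts. In dissected tissue, fewer cells of a type and less RNA per cell cannot be told apart. Ratios were wider on terminal end bud arrays, with an SD over probes between 0.54 and 0.64, than on duct arrays, with an SD between 0.38 and 0.48. Slides up to number 193 held replicates 1 and 2 of each structure. On terminal end bud arrays the mean of the 9 genes was between 1.52 and 1.86 on later slides, against 1.27 and 1.42 on slides up to 193. On duct arrays it was between 1.54 and 1.75 on later slides, against 1.17 and 1.24 on slides up to 193.

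Cldn3 and Epcam stood far above stroma in both structures, Cldn4 and Tjp3 followed, and the other genes lay closer to stroma. By limma's moderated test at an adjusted p of 0.05 over all probes, 7 of the 9 genes exceeded stroma in terminal end buds and 1 was lower, where 23.2% of all probes were called higher and 20.4% lower. In ducts 8 of the 9 were higher and 0 lower, where 16% of all probes were called higher and 12.2% lower. The gene without a call was Cldn8 in terminal end buds and Tjp1 in ducts. With a change of at least 2-fold as well, 4 genes were above stroma and 0 lower for terminal end buds, against 3.74% and 3.48% of all probes. In ducts 5 were higher and 0 lower, against 1.81% and 0.603% of all probes. On every array of the structure, 5 genes stood above stroma in terminal end buds, against 21.8% of all probes, and 7 in ducts, against 18% of all probes. The median ratio of the 9 genes was 0.86 in terminal end buds and 1.21 in ducts, and that of all probes was 0.015 in both. Stroma enters each test only as the other channel of the ratio, so its variation is not measured apart from that of the ratios. The labels do not state whether it was a single pool.

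**Figure D1:**
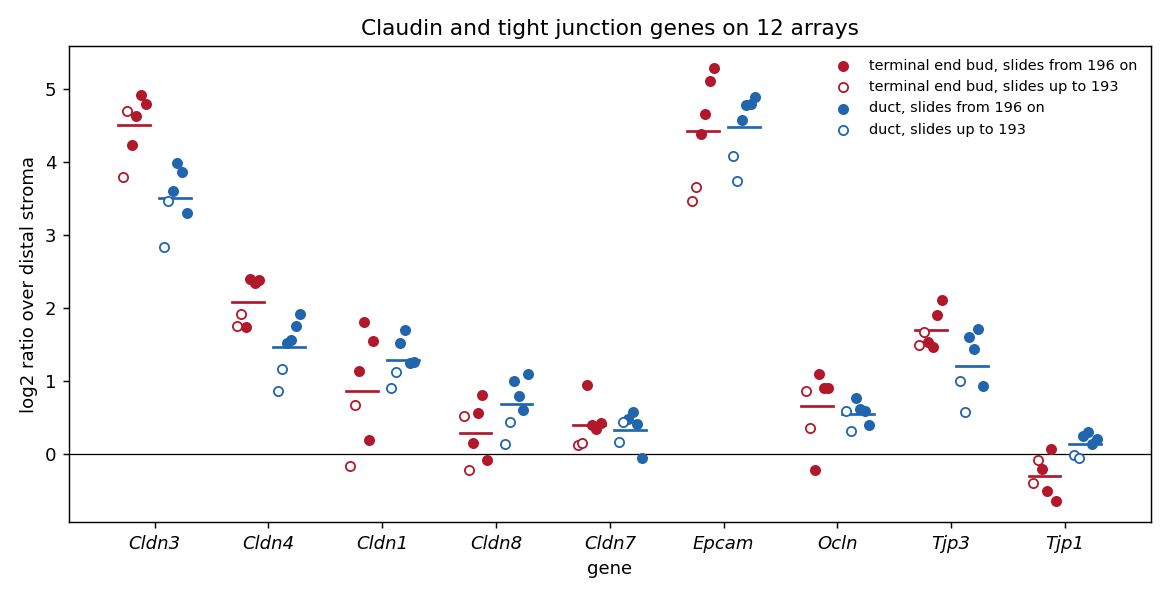
Log2 ratio over distal stroma (vertical axis) of each of the 9 genes on the 6 terminal end bud arrays and the 6 duct arrays. Bars are group means, and open circles are slides up to 193. On every array Cldn3 and Epcam are the highest of the 9 genes, and Epcam on the open circles lies below the filled circles of the same structure.

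Cldn3 encodes a barrier-forming claudin of simple epithelia. Its lowest, median and highest log2 ratios were 3.80, 4.67 and 4.91 in terminal end buds, against 2.84, 3.53 and 3.99 in ducts. The structures overlapped only through terminal end bud replicate 1, at 3.80, which lay below 2 duct arrays. The mean was 4.51 ± 0.42 in terminal end buds and 3.51 ± 0.41 in ducts (SD, n = 6 each), or 22.8-fold and 11.4-fold over stroma. It held rank 6 from the top among all probes in terminal end buds and rank 15 in ducts. The difference between the structures was 1.003 (SE 0.21, limma adjusted p = 0.00417), and the terminal end bud was higher in 6 of 6 pairs of neighbouring slides. Here and below, these pairs follow slide numbers and are not given by the labels. Their count describes the same arrays and is not a second test. With all arrays scaled to a common median absolute deviation, the difference was 0.27 and no longer called (adjusted p = 0.585). It was 1.09 on slides up to 193 (adjusted p = 0.118) and 0.96 on slides from 196 on (adjusted p = 0.0091).

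Cldn4, known for limiting sodium passage between cells, followed the same order at lower ratios. It had 1.74, 2.12 and 2.40 in terminal end buds, against 0.86, 1.54 and 1.91 in ducts. The ranges overlapped between 1.74 and 1.91. Means were 2.09 ± 0.32 in terminal end buds and 1.46 ± 0.39 in ducts (SD, n = 6 each). The difference was 0.63 (SE 0.18, limma adjusted p = 0.0266), or 1.55-fold, and the terminal end bud was higher in 6 of 6 neighbouring pairs. This call was near the threshold. It was lost on leaving out terminal end bud replicate 4, 5 or 6, or duct replicate 1 or 2 (adjusted p between 0.0541 and 0.0632). It was also lost under quantile normalization (0.25, adjusted p = 0.287), under the common median absolute deviation (0.31, adjusted p = 0.344) and on slides from 196 on alone (0.53, adjusted p = 0.0608).

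Cldn3 and Cldn4 are direct neighbours on mouse chromosome 5, with no other protein-coding gene between them in the RefSeq annotation. Abhd11, next to Cldn3, stood below stroma at -0.37 in terminal end buds and -0.34 in ducts (adjusted p = 0.00105 and 0.0038). Mettl27, next to Cldn4, stood at 0.033 in terminal end buds (adjusted p = 0.694) and 0.18 in ducts (adjusted p = 0.0373). The large ratios of the pair were thus not seen in these flanking genes. Cldn16, beside Cldn1 on chromosome 16, was at 0.028 in terminal end buds and -0.0022 in ducts, neither called (adjusted p = 0.736 and 0.986). Trp63 is the nearest measured gene on the other side of Cldn1. It was above stroma at 1.19 in terminal end buds and 1.07 in ducts (adjusted p = 8.1e-05 and 0.000509). Calm2, next to Epcam, was above at 0.80 and 0.67 (adjusted p = 4.33e-05 and 0.000512). Slc2a4, next to Cldn7, was below at -2.13 and -0.90 (adjusted p = 6.9e-08 and 0.000622).

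The promoters of the pair that was higher in terminal end buds, and of Tjp1, the 1 gene of the 9 called lower there than in ducts, are shown as the 250 bases before each gene's start from RefSeq (GRCm38.p6), 5′ to 3′. Capitals mark complete matches on either strand to the E-box CAGGTG, which Snail and Zeb repressors bind, and to the GC box GGGCGG.
Cldn3, chr5:134985964-134986213, plus strand: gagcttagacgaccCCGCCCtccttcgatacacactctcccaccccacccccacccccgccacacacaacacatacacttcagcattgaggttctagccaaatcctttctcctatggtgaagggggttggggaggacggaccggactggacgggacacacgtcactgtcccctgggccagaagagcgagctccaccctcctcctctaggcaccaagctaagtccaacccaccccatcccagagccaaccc
Cldn4, chr5:134946935-134947184, minus strand: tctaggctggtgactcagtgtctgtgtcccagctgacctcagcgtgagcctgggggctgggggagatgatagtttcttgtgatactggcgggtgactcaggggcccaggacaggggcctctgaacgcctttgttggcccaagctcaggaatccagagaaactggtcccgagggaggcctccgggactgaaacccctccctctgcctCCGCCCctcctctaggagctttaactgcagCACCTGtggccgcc
Tjp1, chr7:65371245-65371494, minus strand: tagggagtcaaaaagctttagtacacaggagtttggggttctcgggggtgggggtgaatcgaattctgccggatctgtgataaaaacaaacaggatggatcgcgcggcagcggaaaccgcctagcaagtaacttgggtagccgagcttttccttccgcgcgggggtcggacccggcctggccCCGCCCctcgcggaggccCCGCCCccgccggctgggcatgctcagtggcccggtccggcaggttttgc
Windows from 250 bases before to 50 after a start were found for 8 of the 9 genes, all but Cldn8. CAGGTG was present for 6 of the 8 (Cldn3, Cldn4, Cldn7, Epcam, Ocln and Tjp3), and 22.6% of the 27025 genes with a window held it. In Cldn3 it began 32 bases into the transcript, past the printed stretch, and in Cldn4 it began at -14 and again 12 bases into the transcript. No CAGGTG was in the Tjp1 and Cldn1 windows. GGGCGG was present for 7 of the 8, all but Tjp3, and for 38.2% of all genes. The Grainyhead-like motif AACCNGTT and the TATA box TATAAA were found for 0 of the 8, and 2.35% and 15.7% of all genes held them. None of the marked matches overlap, and a match describes letters, not binding.

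Cldn1, a barrier claudin best known from skin, had -0.17, 0.90 and 1.81 in terminal end buds, against 0.90, 1.25 and 1.70 in ducts. The terminal end bud arrays enclosed the duct range, and replicates 1 and 5 gave the lowest values, -0.17 and 0.18. The mean was 0.86 ± 0.77 in terminal end buds and 1.29 ± 0.29 in ducts (SD, n = 6 each), both called above stroma (limma adjusted p = 0.00326 and 0.000316). The terminal end bud call was lost on slides up to 193, which hold 2 of those arrays (0.25, adjusted p = 0.413). The difference of -0.43 had a 95% interval from -1.05 to 0.20 (adjusted p = 0.379).

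Cldn8, a claudin of distal kidney tubules and other tight epithelia, had -0.22, 0.33 and 0.80 in terminal end buds, against 0.14, 0.70 and 1.09 in ducts. All 6 duct arrays were above stroma, and 4 of 6 terminal end bud arrays were. The mean was 0.29 ± 0.40 in terminal end buds, not called, and 0.68 ± 0.36 in ducts, called above stroma (SD, n = 6 each, limma adjusted p = 0.11 and 0.00196). Leaving out replicate 2 gave a terminal end bud ratio of 0.39 that was called (adjusted p = 0.0406), and the duct call was lost on slides up to 193 alone (0.29, adjusted p = 0.374). The difference of -0.39 had a 95% interval from -0.81 to 0.027 (adjusted p = 0.205), so a call in ducts alone does not show that the structures differed.

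Cldn7 encodes the claudin that Epcam binds. It had 0.12, 0.37 and 0.94 in terminal end buds, against -0.056, 0.42 and 0.56 in ducts. With means of 0.39 ± 0.30 in terminal end buds and 0.33 ± 0.23 in ducts (SD, n = 6 each), it was called above stroma in both (limma adjusted p = 0.00511 and 0.024). The duct call was lost on leaving out duct replicate 2, 3, 4 or 5 (adjusted p between 0.0649 and 0.0796) and within either set of slides (adjusted p = 0.126 up to 193 and 0.075 from 196 on). The terminal end bud call was lost on slides up to 193 alone (0.13, adjusted p = 0.418). The difference of 0.064 had a 95% interval from -0.24 to 0.37 (adjusted p = 0.821).

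Epcam itself had 3.46, 4.52 and 5.29 in terminal end buds, against 3.74, 4.68 and 4.89 in ducts. It held rank 7 among all probes in both structures and was the highest of the 9 genes on every array but terminal end bud replicates 1 and 2, where Cldn3 was. Means were 4.43 ± 0.75 in terminal end buds and 4.48 ± 0.46 in ducts (SD, n = 6 each), or 21.5-fold and 22.3-fold over stroma. The difference of -0.053 had a 95% interval from -0.72 to 0.61 (limma adjusted p = 0.936). Scaled to a common median absolute deviation it was -0.94, outside that interval and not called (adjusted p = 0.109).

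Epcam also followed the slide numbers. Its terminal end bud ratios were between 4.38 and 5.29 on slides from 196 on, against 3.46 and 3.65 up to 193. Its duct ratios were between 4.58 and 4.89 on slides from 196 on, against 3.74 and 4.08 up to 193. Later slides were compared with earlier ones, with the structures in the model, by a test added after seeing the data. For Epcam the later slides were higher by 1.08 (SE 0.16, limma adjusted p = 0.0338), where 0.142% of all probes were called higher and 0.0512% lower. The other 8 genes lay between 0.089 for Tjp1 and 0.67 for Cldn1 in this difference, none called (adjusted p between 0.151 and 0.885). Krt8, Krt18 and Krt19 were at 0.48, 0.67 and -0.29, none called (adjusted p between 0.0705 and 0.673). What set these slides apart was not tested.

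Ocln, the occludin gene, had -0.22, 0.88 and 1.09 in terminal end buds, against 0.31, 0.59 and 0.77 in ducts. Terminal end bud replicate 3 was the only array of the 12 below stroma, and the duct arrays lay inside the terminal end bud range. Means of 0.65 ± 0.49 in terminal end buds and 0.54 ± 0.16 in ducts (SD, n = 6 each) were both called above stroma (limma adjusted p = 0.00107 and 0.00739). The duct call was lost on slides up to 193 alone (0.45, adjusted p = 0.103). The difference was 0.11 with a 95% interval from -0.30 to 0.51 (adjusted p = 0.764).

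Tjp3 encodes a scaffold protein largely restricted to epithelia. It had 1.46, 1.60 and 2.11 in terminal end buds, against 0.57, 1.21 and 1.71 in ducts. Duct replicates 1, 2, 4 and 6 lay below every terminal end bud array, and duct replicates 3 and 5 overlapped them. Means of 1.69 ± 0.26 in terminal end buds and 1.21 ± 0.44 in ducts (SD, n = 6 each) were both called above stroma (limma adjusted p = 1.21e-07 and 1.29e-05). The difference of 0.49 (SE 0.19, 95% interval from 0.086 to 0.89) did not pass (adjusted p = 0.0907), with 5 of 6 neighbouring pairs higher in the terminal end bud. It passed without duct replicate 5 (0.59, adjusted p = 0.0419).

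Tjp1 encodes the scaffold ZO-1, which also sits at junctions of endothelium and many other tissues. It had -0.64, -0.31 and 0.059 in terminal end buds, against -0.057, 0.17 and 0.30 in ducts. Terminal end bud replicate 5 alone overlapped the ducts, and the other 5 lay below every duct array. The mean of -0.30 ± 0.27 in terminal end buds was called below stroma and that of 0.13 ± 0.14 in ducts was not called (SD, n = 6 each, limma adjusted p = 0.00967 and 0.275). The difference was -0.43 (SE 0.12, adjusted p = 0.02), or 0.741-fold, with the terminal end bud lower in 6 of 6 neighbouring pairs. The terminal end bud call below stroma was lost on slides up to 193 alone (-0.25, adjusted p = 0.159). The difference kept its call under quantile normalization (-0.39, adjusted p = 0.0315) and under the common median absolute deviation (-0.39, adjusted p = 0.0272). It was -0.21 and not called on slides up to 193 (adjusted p = 0.544), and -0.55 and called on slides from 196 on (adjusted p = 0.0389). Endothelial markers moved the same way. All 6 were called lower in terminal end buds than in ducts, against 10.4% of all probes. Their mean was between -1.60 and -1.12 on terminal end bud arrays and between -0.59 and -0.15 on duct arrays. The means of basal, adipocyte, blood and fibroblast markers were also lower in terminal end buds, with differences of -0.89, -0.63, -0.23 and -0.20. Called lower were 2 of 5 basal, 2 of 5 adipocyte, 0 of 2 blood and 1 of 6 fibroblast markers. Fibroblast markers went both ways, with Col3a1 called lower at -1.22 and Pdgfrb called higher at 0.79 (limma adjusted p = 0.00328 and 1.71e-05). The adipocyte mean leaves out a second Lipe probe at -0.95. Nerve and muscle markers were at -0.0085, and luminal and division markers were higher, at 0.61 and 1.30. The part of any of these cell types in the Tjp1 difference was not tested.

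Between the structures, 2 of the 9 genes (Cldn3 and Cldn4) were higher and 1 (Tjp1) lower in terminal end buds, where 8.32% of all probes were higher and 10.4% lower. With a change of at least 2-fold as well, 1 gene (Cldn3) was higher and 0 lower, against 0.995% and 1.39% of all probes. For 0 of the 9 genes were the arrays of the structures fully apart, which was so for 4.42% of all probes with the terminal end bud higher and 5.79% with it lower. The median difference of the 9 genes was 0.064. The mean of Krt8, Krt18 and Krt19 was itself higher in terminal end buds by 1.03, with 1.69 for Krt19, 1.20 for Krt8 and 0.21 for Krt18. Relative to that mean, Cldn3 differed by -0.031 (95% interval from -0.40 to 0.34, limma adjusted p = 0.867). The other 8 genes were lower relative to the keratins, from -0.40 for Cldn4 to -1.47 for Tjp1, and 0 were higher. Of all probes 96.8% were lower and 0.188% higher on that scale, so the count says nothing particular about these genes. With at least 2-fold as well, 4 were lower and 0 higher, against 56.8% and 0.0284% of all probes. The Cldn4 call was lost without duct replicate 6 (-0.32, adjusted p = 0.0721), the Cldn4 and Tjp3 calls on slides up to 193 alone (-0.25 and -0.28, adjusted p = 0.341 and 0.291), and all 8 under the common median absolute deviation.

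**Figure D2:**
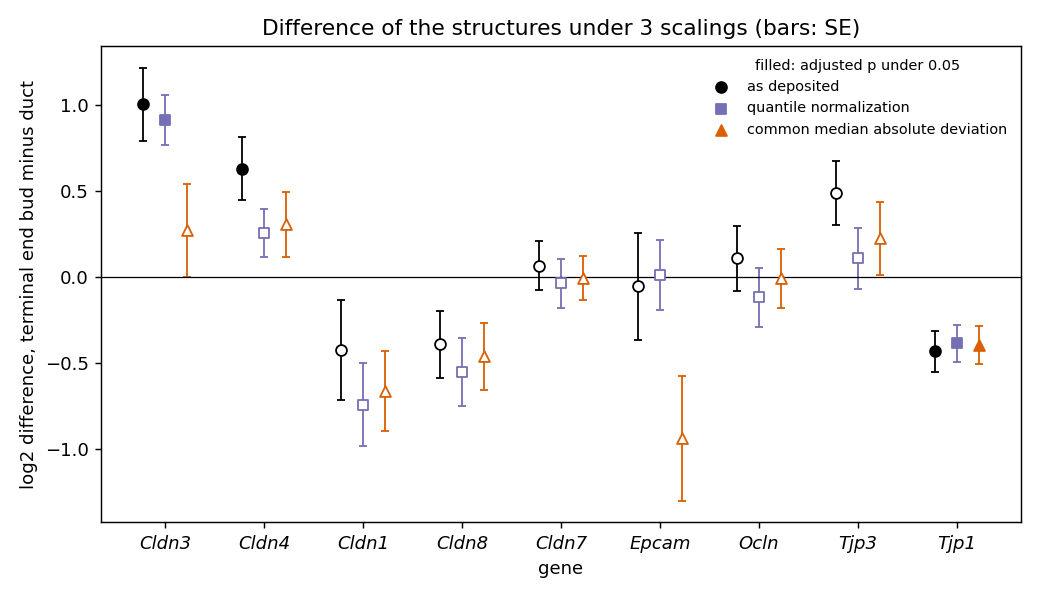
Log2 difference of terminal end bud minus duct (vertical axis, bars are SE) for the 9 genes, from the deposited ratios, after quantile normalization, and after scaling to a common median absolute deviation. Filled symbols have an adjusted p under 0.05. Cldn3 is at 1.003, 0.91 and 0.27 under the 3 scalings, Epcam at -0.053, 0.011 and -0.94, and Tjp1 at -0.43, -0.39 and -0.39.

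The remaining claudins mostly stayed near stroma. Of 15 other claudin and claudin-domain genes measured, 2 were higher and 2 lower than stroma in terminal end buds, with 3 higher and 1 lower in ducts. Across the whole array, calls above stroma took 23.2% of probes for terminal end buds and 16% for ducts. Calls below it took 20.4% and 12.2%. Cldn6, known from embryonic epithelia, had 1.66 in terminal end buds and 1.01 in ducts, both called (limma adjusted p = 1.89e-06 and 0.00052). Its difference of 0.66 did not pass (adjusted p = 0.0785). Cldn10 had 1.19 in terminal end buds (adjusted p = 0.000358) and 0.39 in ducts (adjusted p = 0.206), but a second probe of the gene gave 0.029 and 0.0022. Between the structures 3 of the 15 were lower in terminal end buds and 0 higher, against 10.4% and 8.32% of all probes. They were Cldn5, the endothelial claudin, at -0.40, Cldn14 at -0.34 and Cldn2, a pore-forming claudin, at -0.32 (adjusted p = 0.0104, 0.0136 and 0.0323).

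Of 9 other membrane proteins of the junction, 4 were higher and 2 lower than stroma in terminal end buds, and 4 were higher and 0 lower in ducts. Over all probes, 23.2% were called higher and 20.4% lower in terminal end buds, and 16% and 12.2% in ducts. Lsr, angulin-1, a protein of contacts where 3 cells meet, was at 3.04 in terminal end buds and 2.31 in ducts, and its difference of 0.72 was called (limma adjusted p = 0.00328). This call was lost under the common median absolute deviation. Marveld2, tricellulin, which lies beside Ocln in the genome, was at 0.31 in terminal end buds and 0.34 in ducts (adjusted p = 0.0228 and 0.0244). Cxadr, the coxsackievirus and adenovirus receptor, counts as higher in both from 1 probe (0.56 in terminal end buds and 0.55 in ducts). Its other probes gave -0.12 and -0.052 in terminal end buds, not called, and -0.052 and -0.24 in ducts, the last called lower (adjusted p = 0.0209). The lower genes were Jam2 at -0.96 and Esam at -0.85, adhesion molecules of endothelium. Both were also lower in terminal end buds than in ducts, by -0.67 and -0.81 (adjusted p = 0.0113 and 0.00186). So were all 6 endothelial markers, 2 of 5 basal markers, 2 of 5 adipocyte markers and 1 of 6 fibroblast markers, against 10.4% of all probes. Of the fibroblast markers 1 was called higher. A second probe of the adipocyte gene Lipe, not counted here, was also lower by -0.95 (limma adjusted p = 0.0046). The part of these cell types in the Jam2 and Esam differences was not tested.

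Plaque and polarity genes spread to both sides. Of 21 measured, 11 were higher and 5 lower than stroma in terminal end buds, and 8 were higher and 3 lower in ducts. All probes gave 23.2% higher and 20.4% lower in terminal end buds, and 16% and 12.2% in ducts. The lower calls were thus about as frequent as over all probes. Ybx3, which binds Tjp1, was at 1.01 in terminal end buds and 0.63 in ducts (limma adjusted p = 4.93e-07 and 0.000135). Between the structures 5 were higher in terminal end buds, namely the polarity genes Scrib at 0.48, Llgl1 at 0.46 and Pard6g at 0.43, with Amotl1 at 0.39 and Sympk at 0.39 (adjusted p between 0.000795 and 0.0353). A second Amotl1 probe gave 0.17. Mpdz at -0.63 and Mpp5, the Pals1 scaffold of the Crumbs complex, at -0.50 were lower (adjusted p = 0.00581 and 0.0249). In this comparison 8.32% of all probes were called higher and 10.4% lower.

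**Figure D3:**
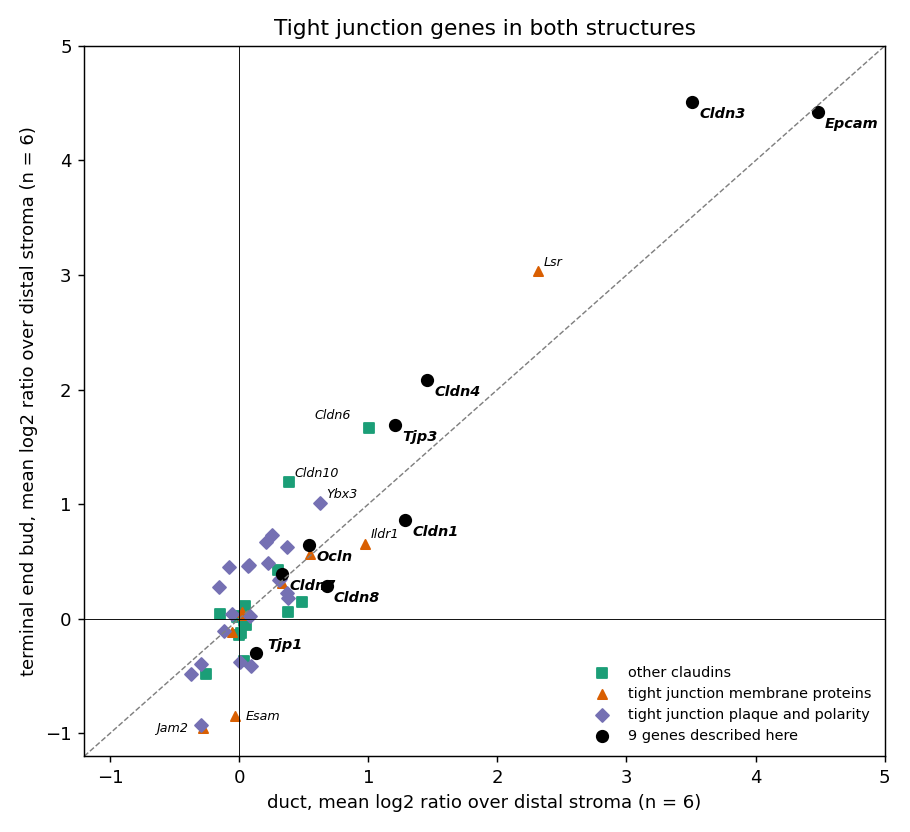
Mean log2 ratio over distal stroma in terminal end buds (vertical axis) against ducts (horizontal axis), n = 6 arrays each, for the 9 genes and for 15 other claudins, 9 membrane proteins and 21 plaque and polarity genes. The dashed line marks equal ratios. Cldn3 at 4.51 and 3.51, Lsr at 3.04 and 2.31 and Cldn4 at 2.09 and 1.46 lie above it.

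All 7 measured regulators known to raise epithelial junction genes were higher than stroma in terminal end buds, and 4 were in ducts. Among all probes 23.2% were called higher in terminal end buds and 16% in ducts. Klf5 counts as higher in terminal end buds from 1 probe (1.77). Its second probe gave 0.077 in terminal end buds, not called, and 0.29 in ducts, called higher (limma adjusted p = 0.574 and 0.0398). Ehf was at 1.13 in terminal end buds and 1.33 in ducts, and Grhl1 at 0.58 and 0.54. Grhl2, which binds the Cldn4 gene in mouse epithelia, was at 0.68 in terminal end buds and 0.26 in ducts, with a difference of 0.43 that was not called (limma adjusted p = 0.388). Klf5 was higher in terminal end buds than in ducts by 1.61 on the first probe (adjusted p = 7.32e-05), but the second gave -0.22 (adjusted p = 0.349). Of 6 repressors of epithelial genes, Twist1, Snai1 and Twist2 were higher in terminal end buds than in ducts by 1.11, 0.78 and 0.69 (adjusted p between 7.29e-05 and 0.000188), and Zeb1 was lower by -0.35 (adjusted p = 0.0153). In this comparison 8.32% of all probes were called higher and 10.4% lower. Which cells carried the regulator and repressor transcripts was not measured.

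The genes most like each of the 9 were sought among 12833 others by Pearson correlation over the 12 arrays, as a description, since arrays share their structure and slides. The 3 closest to each gene had r between 0.854 and 0.962. They were picked as the highest of 12833 over only 12 arrays, so a high r is no evidence of a link. The values after removal of means come from the same genes and arrays and are not a check. Cldn4 was closest to the Notch target Hes1 (r = 0.950, and 0.833 after the means of the structures and of earlier and later slides were removed). Cldn3 was closest to the splicing gene Snrpa1 (r = 0.939, and 0.844 after that removal). Tjp3 was closest to Cldn6 (r = 0.893, and 0.744). Cldn1 was closest to Mal2, an apical transport protein gene (r = 0.916, and 0.850). Tjp1 was closest to Sbk1 (r = 0.962, and 0.946). For Epcam the closest gene, Mrps21, had r = 0.903, and 0.587 after that removal. Cldn7, Cldn8 and Ocln were closest to Homer1, Dkkl1 and Nptx1 (r = 0.871, 0.918 and 0.927). Homer1 and Nptx1 lay near stroma, at 0.0053 and -0.0097 in terminal end buds and -0.023 and -0.073 in ducts.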

How the data were processed

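The authors deposited 1 table of normalized ratios for the 12 arrays, Cy5 over Cy3 by the labels, here read as log2 from the size of the values. Scanner, background correction and normalization steps are not stated in what was available. Array medians lay between 0.01 and 0.023, so values were used as deposited, and 129 probes had 1 missing value. Slide numbers come from the titles, and replicates are numbered in record order.

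In limma 3.58.1 (R 4.3.3), a fit of the 2 group means over 12 arrays (lmFit, eBayes) gave each ratio against 0 and the difference of the structures, two-sided, with Benjamini-Hochberg adjustment over 17589 probes with at least 4 values per structure and a threshold of 0.05. Genes with several probes were read from the probe with most values, then the first. The fit was tested on simulated data. The members and lists were chosen with earlier results of these data known. The text names all 9 genes, genes of each list with the called ones of largest change first, and genes from the 3 most like each of the 9. Lists are described by counts, with no set test. Blood, nerve and muscle, adipocyte, fibroblast and division markers had 0, 1, 0, 2 and 5 genes higher than stroma in terminal end buds and 0, 1, 0, 4 and 1 in ducts, of 2, 3, 5, 6 and 5 measured, with 1, 1, 4, 0 and 0 lower in terminal end buds and 0, 1, 2, 0 and 0 in ducts. A second probe of the adipocyte gene Lipe, left out of these counts, was called lower in terminal end buds (-1.54) and in ducts (-0.59). Alternatives were other scalings, probe filters and variance models, array weights, slide terms, a size minimum and each array left out. The test of later against earlier slides was added after seeing the data. The number of arrays limits the precision.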

Additional observations from a re-analysis of the deposited data

Results flagged for a closer look

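Cldn7 on terminal end bud replicate 3 had a log2 ratio of 0.942, apart from the other 5 arrays of its structure, which lay between 0.12 and 0.42. Its gap to the nearest array was 0.628 of the whole range, just past Dixon's critical value for 6 samples, and chance marks about 1 in 20 such groups. Without that array Cldn7 differed between terminal end buds and ducts by -0.045 (limma adjusted p = 0.847).

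The ratio over stroma differed between terminal end buds and ducts, by a test of the difference itself, for Cldn3 (1.003), Cldn4 (0.63) and Tjp1 (-0.43).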

How the results depend on the processing

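Of 207 values of single genes for terminal end bud minus duct under an alternative, 179 kept their direction and their side of the threshold, as did 208 of 216 for terminal end buds over stroma and 204 of 216 for ducts over stroma. Of the 2 higher and 1 lower calls between the structures, quantile normalization left 1 higher, the common median absolute deviation 0 higher, slides up to 193 alone 1 higher and 0 lower, slides from 196 on alone 1 higher, and a minimum log2 size of 1 left 1 higher and 0 lower. Leaving out single arrays gave between 1 and 3 higher. Over stroma, slides up to 193 alone left 5 higher and 0 lower in terminal end buds, without Cldn1, Cldn7 and Tjp1, and 5 higher in ducts, without Cldn7, Cldn8 and Ocln, and the minimum size left 4 higher and 0 lower in terminal end buds and 5 higher in ducts. Relative to the keratins, the 8 lower calls became 0 under the common median absolute deviation, 6 on slides up to 193 alone and 4 with the minimum size. Some differences changed sign. Cldn7 was at -0.037 under quantile normalization, -0.0053 under the common median absolute deviation and -0.16 on slides up to 193, and between -0.045 and 0.12 with single arrays left out. Ocln was at -0.12 under quantile normalization and -0.0089 under the common median absolute deviation. Epcam was at 0.011 under quantile normalization and 0.10 on slides from 196 on, and between -0.23 and 0.14 with single arrays left out. The duct ratio of Tjp1 was -0.04 on slides up to 193. Relative to the keratins, the common median absolute deviation put Cldn3 at 0.23, Cldn4 at 0.26 and Tjp3 at 0.18. On that scale Cldn3 was at 0.043 with array weights and 0.024 on slides up to 193, and between -0.14 and 0.064 with single arrays left out. In the other lists, quantile normalization gave 2 membrane proteins higher in terminal end buds over stroma, 1 lower in ducts over stroma and 1 lower between the structures, and 2 plaque genes higher and 1 lower between the structures. The common median absolute deviation gave 0 higher and 1 lower of the membrane proteins between the structures. It narrows the wider terminal end bud arrays by construction, and for the other changes the cause was not tested.

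The labels give no replicate numbers shared by the structures. With neighbouring slides as a replicate block, 2 of the 9 genes stayed higher and 1 lower between the structures (limma adjusted p = 0.000942 for Cldn3, 0.00335 for Cldn4 and 0.0454 for Tjp1), with 7.83% and 10.5% of all probes called. Deviations of neighbouring arrays correlated between -0.061 and 0.280, which does not show pairing.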
